A study of Mus musculus with 4 samples.

Results

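The chromatin of 35 mouse orthologues of genes from Alzheimer's disease risk loci was described in microglia with and without IRF8. The genes came from a list, and every deposited peak that overlapped a gene body or its flanks of 10 kb on either side was taken, in GRCm38 with the GENCODE M21 annotation. Merging the strict peaks (a deposited −log10 q of 2 or more) of all libraries gave 155546 regions in the genome, of which 621 lay at the 35 loci. No region belonged to more than 1 locus. Of the 621 regions, 71 lay within 1 kb of a start site of the risk gene itself (own promoters), 20 lay within 1 kb of the start site of another gene, and 530 were distal. Regions carry the name of the gene and their order along the chromosome, so that Cass4_r4 is the fourth region of the Cass4 locus.

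The data came from ATAC-seq, in which the Tn5 transposase cuts accessible DNA. There were 4 libraries of FACS-sorted microglia from untreated 3-month-old C57BL/6 mice, 2 labelled WT and 2 labelled IRF8KO. The labels do not say how the IRF8KO allele was made, nor whether the replicates came from separate mice. P-values therefore rest on the spread between these libraries, which may be technical. In the fit below that spread is mostly pooled over regions of similar level (68.3 prior and 2 residual degrees of freedom), and little of it is the region's own. Values are the authors' summit pileup (the depth of extended cut sites at the top of a peak) per 1000000 tags of the library, called pileup from here on. In these bulk samples a region open in fewer cells and one less open in each cell cannot be told apart. Paired values are always given for replicates 1 and 2 in that order.

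Genome-wide association studies have tied risk of late-onset Alzheimer's disease to many loci whose nearest genes are active in microglia and other myeloid cells. Much of the inherited signal lies outside coding sequence, in enhancers, which are distal elements that raise transcription of a gene and are accessible where they are in use. IRF8 belongs to the interferon regulatory factors. It binds with the ETS factor PU.1 at composite DNA elements and is needed for the development and identity of microglia and other macrophages.

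WT libraries held 46948938 and 48896408 tags and IRF8KO libraries held 78793572 and 66224648, with tags of 50 bp in WT and 49 bp in IRF8KO, so depth and tag size followed genotype and cannot be told apart from it. The promoter of Irf8, the targeted gene, read 2.07 and 1.49 in WT and 0.863 and 1.36 in IRF8KO (log2 difference −0.39 ± 0.22 SE, adjusted p 0.198), which does not check the deletion. All 7 microglial marker promoters examined carried a peak. Summed over them, pileup was 22.1 and 16.2 in the WT libraries and 8.35 and 13.4 in IRF8KO. The promoter of P2ry12, a microglial purine receptor, fell (3.73 and 2.37 in WT, 0.749 and 1.39 in IRF8KO), and that of Sall1, a microglial transcription factor, read 2.17 and 2.05 in WT but had no peak in IRF8KO replicate 1 and 0.136 in replicate 2. Among 4 promoters of border macrophages and monocytes, Mrc1 had a peak (0.341 and 0.286 in WT, 0.571 and 1.13 in IRF8KO, called higher) and Lyve1, Ccr2 and Ly6c2 had none. Summed marker promoters of other brain and blood cells were low, from 1.19 to 1.92 for astrocytes (Aqp4 at 0; the promoter of Aldh1l1 called higher, from 0.405 and 0.205 to 0.850 and 1.53, and that of Slc1a3 lower, from 0.682 and 0.777 to 0.216 and 0.393), 0.546 to 1.10 for neurons, 0.533 to 1.30 for endothelium (Tek at 0), 0.123 to 0.423 for neutrophils (Ltf and Elane at 0) and 0 to 0.234 for B or T cells (Cd79a, Cd3e and Cd8a at 0). Among oligodendrocyte markers the promoter of Mog read 0.98 and 0.675 in WT but had no peak in IRF8KO replicate 1 and 0.166 in replicate 2, that of Mbp was not called (1.06 and 0.798, then 0.495 and 0.982) and Mag was at 0. The part of these marker changes in the values below was not tested.

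Regions at the risk loci changed in both directions. The 35 loci held 444 and 426 strict peaks in the WT libraries and 385 and 441 in those of IRF8KO. The means of 435 ± 12.7 and 413 ± 39.6 (SD, n = 2 each) differed by less than the spread in IRF8KO (exact two-sided permutation p 0.667). These peaks made up 0.456% and 0.431% of all strict peaks in WT and 0.458% and 0.460% in IRF8KO (exact permutation p 0.333, the smallest that 2 against 2 libraries can give). Of the 35 genes, 19 had regions that were higher or present only in IRF8KO together with regions that were lower or present only in WT, 10 had only the former, 2 (Jazf1 and Cd2ap) had only the latter, and 4 (Tmem106b, Sppl2a, Clu and Fermt2) had neither. With calls made without centring (below) these numbers were 13, 9, 5 and 8. The same tally over all genes was not made.

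Levels were compared in the 295 of the 621 regions that overlapped a deposited peak in all 4 libraries, with limma fitted to 58550 such regions of the genome after each library was centred on its median. Regions past an adjusted p of 0.05 (Benjamini-Hochberg over all regions fitted) are said to be called, and log2 differences are IRF8KO minus WT. Higher in IRF8KO were 57 regions at 24 genes and lower were 35 regions at 16 genes. Distal regions accounted for 51 of the higher calls, 22.8% of 224 fitted, where 16.3% of all distal regions were called higher. They accounted for 31 of the lower calls (13.8%, against 14.6% of all distal regions). Among 71 fitted promoters of any gene at the loci, 6 were higher (8.45%, against 6.84% of all promoters) and 4 were lower (5.63%, against 7.75%). The median log2 difference was 0.07 over the 295 regions and −0.00 over all fitted. Without centring the split turned from 57 higher and 35 lower to 12 higher (4.07%, against 2.81% of all fitted regions) and 20 lower (6.78%, against 6.82%), and the median over all fitted regions moved from −0.00 to −0.31, so that each difference below is relative to the median region. Leaving out WT replicate 1 gave medians of 0.02 at the loci and −0.05 over all fitted, and a smaller share of regions was called in both.

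**Figure D1:**
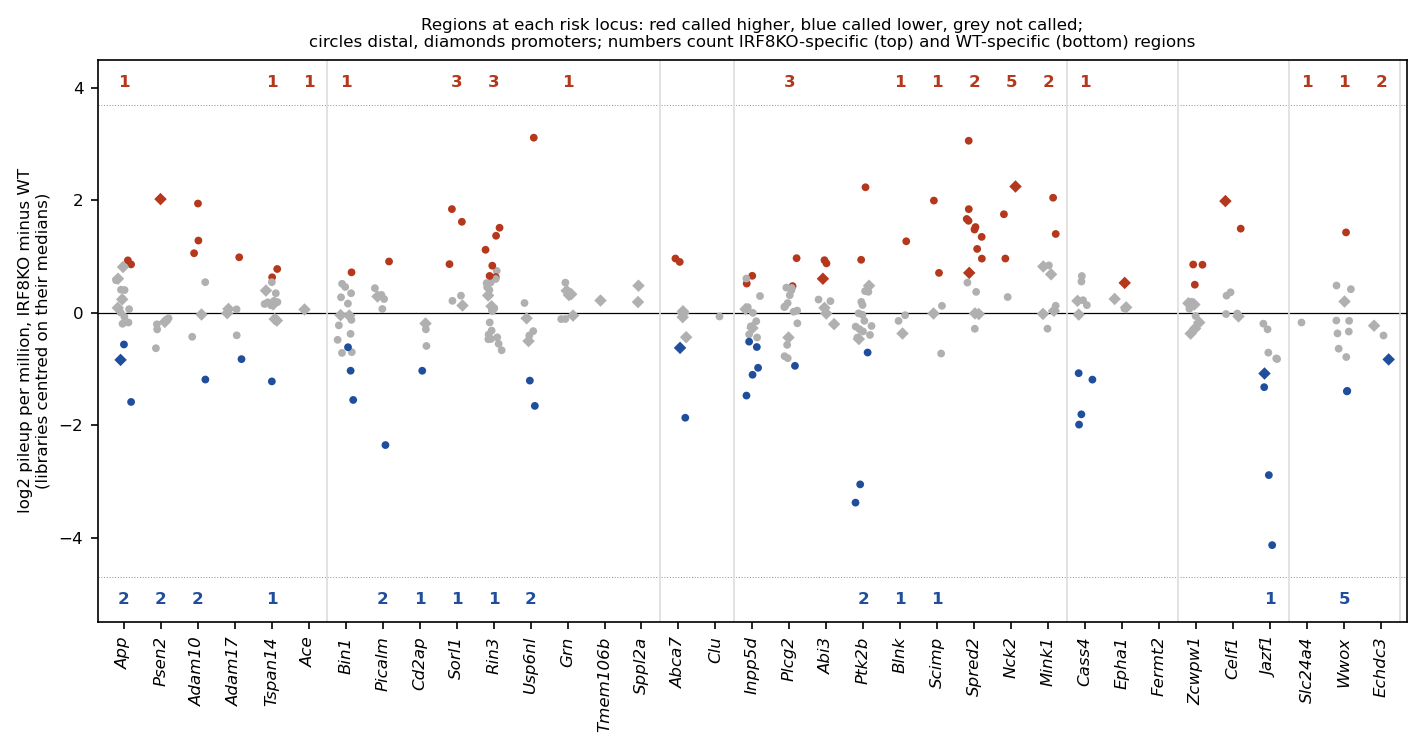
Each point is a region with a peak in all 4 libraries, placed by its gene on the horizontal axis (grouped by role) and by its log2 difference on the vertical axis, with red for called higher, blue for called lower and grey for not called. Diamonds are promoters and circles distal regions, and the bold numbers count regions found only in IRF8KO (top) or only in WT (bottom). Most genes show points on both sides of 0, Spred2 and Nck2 hold red points and no blue ones, and the lowest point is Jazf1_r25 at −4.14.

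Regions absent from a library have no measured level and were counted apart. WT-specific regions overlapped strict peaks of both WT replicates and no deposited peak of any strength from IRF8KO, and the converse gave IRF8KO-specific regions. At the risk loci 24 regions at 14 genes were WT-specific and 30 regions at 17 genes were IRF8KO-specific. By the same rule, pairs made of 1 library of each genotype gave 2, 3, 1 and 1 regions. With 1 library left out the rule asks for fewer peaks or fewer absences. WT-specific regions then numbered 69 without WT replicate 1, 70 without WT replicate 2 and 56 without IRF8KO replicate 2, and IRF8KO-specific regions 69 and 63 without IRF8KO replicates 1 and 2. Over all regions of the genome the WT-specific ones rose likewise, from 8673 to 25432, 21086 and 14376. The IRF8KO-specific ones rose from 6005 to 21321 and 20169. WT-specific regions were 23 of 530 distal regions (4.34%, against 6.21% of all distal regions) and 1 of 91 promoters (1.10%, against 2.7% of all promoters). IRF8KO-specific regions were 28 distal (5.28%, against 4.19%) and 2 promoters (2.20%, against 2.37%). The lowest pileup of any deposited peak was 0.128 and 0.123 in WT and 0.102 and 0.106 in the deeper IRF8KO libraries, and the part of depth in these counts was not tested.

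The sequence around the summits was searched on both strands, within 100 bases of the summit, for the ETS-IRF composite element GGAANNGAAA. It was found in 7 of the 35 regions called lower (20%, where 12.5% of all regions called lower held it) and in 3 of the 24 WT-specific regions (12.5%, against 18.7% of all). Of the 57 regions called higher none held it (2.57% of all regions called higher did), nor did any of the 30 IRF8KO-specific regions (1.83% of all). Among fitted regions with no call it was in 8 of 203 (3.94%, against 2.79%). Of 155546 regions in all, 4.30% held it. The 10 matches in regions lost or lowered are shown with the bases on either side, read 5′ to 3′ on the strand of the match from the RefSeq GRCm38 genome. Capitals mark the element. They were picked for their motif after the values were seen, and the first 3 are WT-specific.
Adam10_r6, chr9:70690135-70690194, plus strand: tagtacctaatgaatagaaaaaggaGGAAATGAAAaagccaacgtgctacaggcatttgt
Tspan14_r9, chr14:40928797-40928856, minus strand: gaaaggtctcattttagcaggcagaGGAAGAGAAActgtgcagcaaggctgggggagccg
Picalm_r22, chr7:90216671-90216730, plus strand: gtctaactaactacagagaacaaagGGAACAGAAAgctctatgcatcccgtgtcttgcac
App_r25, chr16:85148661-85148720, plus strand: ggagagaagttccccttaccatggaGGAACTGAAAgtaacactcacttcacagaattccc
Adam17_r8, chr12:21369176-21369235, plus strand: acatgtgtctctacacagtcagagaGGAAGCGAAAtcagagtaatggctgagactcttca
Tspan14_r16, chr14:40947834-40947893, plus strand: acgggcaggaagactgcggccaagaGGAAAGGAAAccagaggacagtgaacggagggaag
Picalm_r14, chr7:90176599-90176658, minus strand: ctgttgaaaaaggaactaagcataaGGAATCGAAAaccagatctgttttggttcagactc
Abca7_r9, chr10:80024399-80024458, plus strand: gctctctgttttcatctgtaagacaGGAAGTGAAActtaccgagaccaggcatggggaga
Cass4_r4, chr2:172400163-172400222, minus strand: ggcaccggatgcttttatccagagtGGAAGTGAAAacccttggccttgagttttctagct
Cass4_r10, chr2:172420565-172420624, minus strand: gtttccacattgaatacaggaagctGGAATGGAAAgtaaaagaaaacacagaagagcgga

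These 10 lie at 7 genes. Adam10, Adam17 and Tspan14 belong to membrane protein shedding, App is the amyloid precursor, Picalm serves clathrin endocytosis, Abca7 transports lipids and Cass4 is an adhesion scaffold. Cass4, Tspan14 and Picalm each carried the element in a pair of regions that were lower in or absent from IRF8KO. A match names letters and not a bound site.

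Promoters were read gene by gene. Of the 35 genes 33 had a region at their own promoter, and Fermt2 and Slc24a4 had none. For each gene the promoter region with the highest mean was taken. The order of the levels ran from Wwox (7.22 and 6.07 in WT, 5.23 and 7.41 in IRF8KO), Bin1 (8.29 and 5.30, then 4.24 and 6.34), Picalm (6.11 and 4.83, then 4.44 and 6.60) and Tmem106b (5.64 and 5.07, then 4.24 and 6.13) to Ace (0.362 and 0.511, then 0.368 and 0.362), Epha1 (0.319 and 0.286, then 0.279 and 0.302) and Clu, whose promoter had a weak peak in WT replicate 2 (0.164) and IRF8KO replicate 2 (0.211) alone. Neighbours in the order of all 33 overlapped in their libraries, except that every library of Ace was above every library of Epha1, and Epha1 above Clu. Of the 32 promoters with a peak in all libraries, 2 were called higher and 2 lower (6.25% each, against 6.84% and 7.75% of all promoters), and 28 were not called. Those 28 had log2 differences from −0.47 (Ptk2b) to 0.30 (Picalm). The 95% intervals of the 32 differences reached between 0.29 and 0.71 to either side on the log2 scale, so smaller shifts were not detectable.

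**Figure D2:**
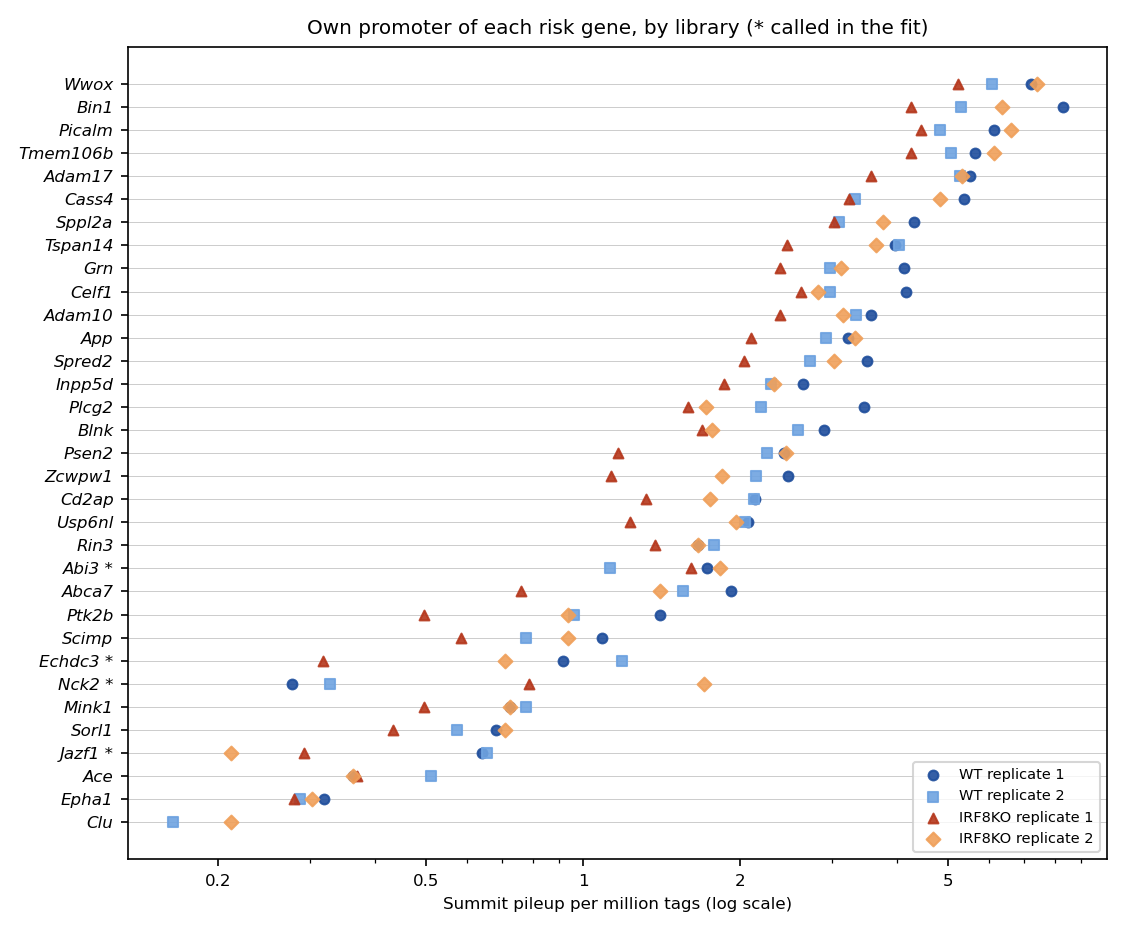
Summit pileup per 1000000 tags (horizontal, log scale) at the promoter of each of 33 risk genes (vertical, ordered by mean level), with 1 symbol per library and no error bars. An asterisk marks the 4 called promoters. Symbols of the genotypes interleave for many genes. At others, such as Plcg2, Blnk and Jazf1, both WT libraries lie to the right of both IRF8KO libraries. For Nck2 both IRF8KO libraries lie to the right of both WT libraries.

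The promoter of Nck2, an adaptor that links receptor tyrosine kinases to the actin cytoskeleton, rose most (chr1:43445234-43446447). It read 0.277 and 0.327 in WT and 0.787 and 1.71 in IRF8KO, a log2 difference of 2.25 ± 0.30 (SE, adjusted p 4.31e-09). Both IRF8KO libraries were above both WT libraries. It kept its call without centring (adjusted p 0.0043), but missed it on the authors' fold enrichment (adjusted p 0.0505). The promoter of Jazf1, a zinc finger protein of chromatin complexes, fell from 0.639 and 0.654 to 0.292 and 0.211 (log2 −1.08 ± 0.34, adjusted p 0.0131). That of Echdc3, a mitochondrial protein, fell from 0.916 and 1.19 to 0.317 and 0.710 (log2 −0.83 ± 0.28, adjusted p 0.0214). For Abi3, a WAVE complex subunit, the region taken (Abi3_r9) lay on a start site of Gngt2, 0.507 kb from one of Abi3. Abi3_r8, on an Abi3 start site, was not called. At Abi3_r9 the libraries of the genotypes overlapped (1.73 and 1.12 in WT, 1.61 and 1.83 in IRF8KO) and the call came with centring (log2 0.61 ± 0.22, adjusted p 0.0282). Without centring the last 3 lost their calls (adjusted p 0.079 for Jazf1, 0.16 for Echdc3 and 0.767 for Abi3). Leaving out WT replicate 1 also ended them (adjusted p 0.227, 0.102 and 0.211), as did leaving out WT replicate 2 (0.154, 0.441 and 0.334). Leaving out IRF8KO replicate 1 ended the calls of Echdc3 (0.237) and Abi3 (0.227), and leaving out IRF8KO replicate 2 that of Jazf1 (0.381).

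At a few genes a second promoter was called and the main promoter was not, a contrast that was not itself tested. Psen2, a catalytic subunit of γ-secretase, read 2.43 and 2.25 in WT and 1.17 and 2.45 in IRF8KO at its strongest promoter, which was not called. At another Psen2 start site 7.22 kb away (Psen2_r11, chr1:180263409-180263883, in an intron of Gm31728) pileup rose from 0.639 and 0.757 to 1.68 and 3.13 (log2 2.02 ± 0.23, adjusted p 3.84e-11). Celf1, an RNA-binding protein of splicing and mRNA decay, showed the same at closer range. Its main promoter read 4.15 and 2.97 in WT and 2.61 and 2.82 in IRF8KO, while Celf1_r1, 385 bp upstream (chr2:90939819-90940074), rose from 0.383 and 0.409 to 1.10 and 1.46 (log2 1.99 ± 0.28, adjusted p 1.65e-08). An alternative promoter of Mink1, a Ste20-like kinase (Mink1_r13, chr11:70601330-70601553), was IRF8KO-specific at 0.393 and 0.513, and so was Scimp_r11 near the start of Scimp, at 0.254 and 0.257. The other called promoter of a risk gene was Spred2_r9 (0.703 and 0.654 in WT, 0.660 and 1.22 in IRF8KO), which lost its call without centring (adjusted p 0.715), without WT replicate 1 (0.294), without WT replicate 2 (0.083) and without IRF8KO replicate 2 (0.153).

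The 12 regions that fell most and the 12 that rose most were picked on these same values for the size of their differences. That their WT and IRF8KO libraries did not overlap is therefore no separate support. The share of all fitted regions without overlap was not counted. All but 1 of these 24 kept their call without centring, the exception being Nck2_r16. Without WT replicate 1, Bin1_r27, Inpp5d_r7, Nck2_r16 and Scimp_r4 missed the threshold (adjusted p 0.0567, 0.0629, 0.0574 and 0.0543), and on the authors' fold enrichment 8 did (App_r2, Bin1_r27, Inpp5d_r7, Nck2_r1, Nck2_r16, Spred2_r14, Sorl1_r12 and Scimp_r4).

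**Figure D3:**
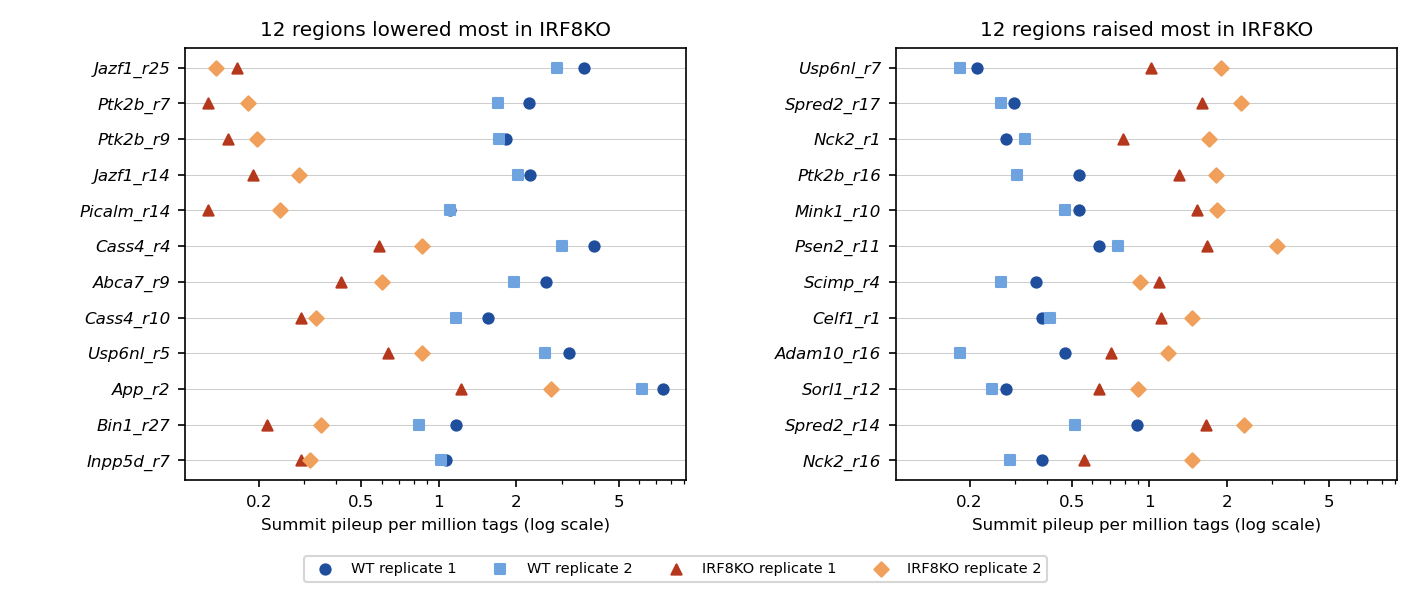
Summit pileup per 1000000 tags (horizontal, log scale) in each library for the 12 regions with the largest fall (left) and the 12 with the largest rise (right) among called regions at the risk loci, ordered by the size of the log2 difference, with 1 symbol per library. Blue WT symbols lie to the right of the red and orange IRF8KO symbols on the left and to their left on the right, from Jazf1_r25 (3.66 and 2.88 against 0.165 and 0.136) to Inpp5d_r7 (1.06 and 1.02 against 0.292 and 0.317).

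Genes that process the amyloid precursor protein held 101 regions, of which 53 were fitted, with 9 higher (17%, against 13.3% of all fitted regions) and 6 lower (11.3%, against 12.5%). A further 7 were WT-specific (6.93%, against 5.58% of all regions) and 3 IRF8KO-specific (2.97%, against 3.86%). Without centring 2 stayed higher and 3 lower. App, the precursor itself, carried the tallest lowered region of all named, App_r2 in an intron (chr16:84966988-84967410). It read 7.43 and 6.14 in WT and 1.22 and 2.72 in IRF8KO, a log2 difference of −1.59 ± 0.17 (adjusted p 8.03e-12). Only 312 bp away, App_r3 was WT-specific (1.26 and 1.10, chr16:84967495-84967622). The App promoter, by contrast, was not called (3.22 and 2.92 in WT, 2.09 and 3.32 in IRF8KO). App_r25, at a start site of the non-coding gene Gm49226 inside an App intron, fell from 1.81 and 1.55 to 0.647 and 0.891 (log2 −0.84 ± 0.23, adjusted p 0.0038, but 0.11 without centring, 0.111 without WT replicate 1 and 0.0647 without WT replicate 2).

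Adam10, the main α-secretase of App and a sheddase of many surface proteins, changed in both directions. Adam10_r16, downstream of the gene (chr9:70783203-70783498), rose from 0.469 and 0.184 to 0.711 and 1.18 (log2 1.94 ± 0.32, adjusted p 8.53e-07). Adam10_r6, which carries the composite element, was a weak WT-specific region at 0.298 and 0.429. Tspan14, a tetraspanin that escorts Adam10 to the cell surface, had 2 intronic regions lost or lowered. Tspan14_r9 (chr14:40928686-40928922) was present at 1.49 and 1.29 in WT and absent from IRF8KO. Tspan14_r16 (chr14:40947467-40948253) fell from 3.11 and 2.33 to 0.761 and 1.15 (log2 −1.22 ± 0.21, adjusted p 2.4e-06, but 0.0679 on the authors' fold enrichment), while Tspan14_r15, 10.7 kb away, was called higher with overlapping libraries (3.43 and 2.88 in WT, 3.16 and 6.04 in IRF8KO, log2 0.78 ± 0.17, adjusted p 0.000142, but 0.563 without centring and 0.123 without WT replicate 1).

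Adam17, which sheds tumour necrosis factor, had 1 intronic region lower and 1 higher. Adam17_r8 (chr12:21369082-21369346) fell from 4.0 and 3.21 to 1.43 and 1.87 (log2 −0.83 ± 0.19, adjusted p 0.000295, but 0.0656 without centring and 0.102 without WT replicate 1). Adam17_r5 was called higher from 2.68 and 2.54 to 3.34 and 5.25 (log2 0.99 ± 0.17, adjusted p 3.09e-06, but 0.351 without centring and 0.0684 without WT replicate 1). Ace, the angiotensin-converting enzyme, had 3 regions and no call, with a weak IRF8KO-specific region at 0.165 and 0.257.

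Among endocytic, trafficking and lysosomal genes 77 of 162 regions were fitted, with 12 higher (15.6%, against 13.3% of all fitted regions) and 7 lower (9.09%, against 12.5%), and 7 were WT-specific (4.32%, against 5.58% of all regions) and 8 IRF8KO-specific (4.94%, against 3.86%). Without centring 3 stayed higher and 4 lower. None of the 15 fitted own promoters in the group was called, where 6.84% of all promoters were higher and 7.75% lower. Usp6nl, a GTPase-activating protein of Rab proteins, had strong changes in both directions at intronic regions 15.6 kb apart. Usp6nl_r5 (chr2:6363221-6363539) fell from 3.22 and 2.58 to 0.635 and 0.861 (log2 −1.66 ± 0.21, adjusted p 2.22e-09), and Usp6nl_r7 (chr2:6378717-6379173) rose from 0.213 and 0.184 to 1.02 and 1.90, the largest rise at any risk locus (log2 3.12 ± 0.30, adjusted p 1.65e-13). Usp6nl also held WT-specific regions in its 3′ UTR (Usp6nl_r16, 1.13 and 0.777) and in an intron (Usp6nl_r4, 0.618 and 0.552).

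Picalm, an adaptor that recruits clathrin to membranes, had 3 regions lost or lowered and 1 called higher. Picalm_r14, whose summit is in a coding exon (chr7:90176521-90176782), fell from 1.11 and 1.10 to 0.127 and 0.242 (log2 −2.35 ± 0.32, adjusted p 1.12e-08). Picalm_r13, 316 bp from it, was WT-specific at 0.298 and 0.368. Picalm_r22, beyond the 3′ end (chr7:90216568-90216970), was present at 0.873 and 0.839 in WT and absent from IRF8KO. Bin1, which bends membranes during endocytosis, showed its largest change beyond the 3′ end as well. Bin1_r27 (chr18:32441228-32441953) fell from 1.17 and 0.839 to 0.216 and 0.347 (log2 −1.55 ± 0.30, adjusted p 3.44e-05). The Bin1 promoter had a log2 difference of −0.05 ± 0.15.

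Sorl1, a sorting receptor that returns App from endosomes, gained more than it lost. Sorl1_r12 (chr9:42094725-42095125) rose from 0.277 and 0.245 to 0.635 and 0.906 (log2 1.84 ± 0.32, adjusted p 3.32e-06), and 2 further Sorl1 regions were called higher. Sorl1_r9 and Sorl1_r10, 245 bp apart, were IRF8KO-specific at 0.279 and 0.483 and at 0.279 and 0.362. In the other direction Sorl1_r7 was WT-specific at 0.639 and 0.675. Rin3, an exchange factor for Rab5, had 47 regions, second to the 54 of the far longer Wwox locus, with 6 higher, none lower, 3 IRF8KO-specific and 1 WT-specific. None of the 6 kept its call without centring. Rin3_r32 led them (0.788 and 0.368 in WT, 0.977 and 1.59 in IRF8KO, log2 1.51 ± 0.27, adjusted p 5.08e-06, but 0.111 without centring). Cd2ap, an adaptor to actin, had 1 region lower, which lost its call without centring, and 1 WT-specific. Grn, the lysosomal protein progranulin, had 7 fitted regions with no call and 1 IRF8KO-specific region (0.381 and 0.544). Tmem106b and Sppl2a, a lysosomal membrane protein and an intramembrane protease, held 3 and 2 regions in all, and their promoters were not called.

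Among the lipid transporter Abca7 and the extracellular chaperone Clu 9 of 14 regions were fitted, with 2 higher (22.2%, against 13.3% of all fitted regions) and 2 lower (22.2%, against 12.5%), all at Abca7. Abca7_r9 (chr10:80024210-80024533) lies in an intron of the neighbour Arhgap45 and fell from 2.62 and 1.96 to 0.419 and 0.604 (log2 −1.87 ± 0.24, adjusted p 1.22e-09). It alone of the 4 kept its call without centring. Clu had 4 weak regions and none above 0.362 in any library.

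Signalling genes of myeloid cells held the most regions, 199, and 99 of them were fitted. Higher were 27 (27.3%, against 13.3% of all fitted regions) and lower 9 (9.09%, against 12.5%), and 14 were IRF8KO-specific (7.04%, against 3.86% of all regions) and 4 WT-specific (2.01%, against 5.58%). Of 80 fitted distal regions 24 were higher (30.0%), next to the 16.3% of all distal regions given above. All 9 genes of the group had a region called higher, and Inpp5d, Plcg2 and Ptk2b had regions called lower. The calls were uneven, as Spred2 held 10 of the 27, from 15 fitted regions, and Nck2 held 5 of the 14 IRF8KO-specific regions. The groups were set with earlier results of these data known. Without centring 6 stayed higher and 3 lower.

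Spred2, an inhibitor of Ras and ERK signalling, had 10 regions called higher and none lower, plus 2 IRF8KO-specific regions, while its strongest promoter was not called (3.49 and 2.72 in WT, 2.03 and 3.02 in IRF8KO). The strongest, Spred2_r17 (chr11:19979379-19979792), rose from 0.298 and 0.266 to 1.60 and 2.27 (log2 3.06 ± 0.27, adjusted p 3.58e-15). Spred2_r14, 6.89 kb before it, rose from 0.895 and 0.511 to 1.66 and 2.33 (log2 1.84 ± 0.24, adjusted p 1.35e-09). These 2 kept their calls without centring and the other 8 did not. Spred2_r23, in a coding exon (chr11:19998012-19998437), had the strongest IRF8KO-specific peak at any risk locus, at 0.914 and 1.57. At Nck2, besides the promoter, 2 regions were higher and 5 were IRF8KO-specific, the most of any risk gene, and none was lower or WT-specific. Nck2_r4 (chr1:43462650-43463164) read 0.495 and 0.831 in IRF8KO, and Nck2_r9, 11.8 kb on, read 0.393 and 0.529. The latter was no longer IRF8KO-specific where a peak had to cover 50% of the region. Nck2_r16, in a coding exon, rose from 0.383 and 0.286 to 0.558 and 1.46 (log2 1.75 ± 0.31, adjusted p 3.7e-06, but 0.0576 without centring and 0.0574 without WT replicate 1).

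Mink1 and Scimp each had a region among the 12 that rose most. Mink1_r10 (chr11:70595697-70596024) rose from 0.532 and 0.470 to 1.54 and 1.83 (log2 2.05 ± 0.25, adjusted p 4.92e-10), and Mink1_r9, 343 bp from it, was IRF8KO-specific at 0.749 and 0.544. Scimp, a transmembrane adaptor of Toll-like receptor signalling, had Scimp_r4 (chr11:70791341-70792057) rise from 0.362 and 0.266 to 1.09 and 0.921 (log2 2.0 ± 0.31, adjusted p 2.15e-07), while Scimp_r8 was WT-specific at 0.383 and 0.368. Plcg2, a phospholipase downstream of Trem2 and other immune receptors, had 2 regions higher, 1 lower and 3 IRF8KO-specific, of which Plcg2_r14 was the tallest (0.647 and 0.544). None of its 3 calls held without centring. Blnk, an adaptor of immune receptor signalling, had 1 region higher, which lost its call without centring, 1 WT-specific and 1 IRF8KO-specific.

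Ptk2b, the calcium-responsive kinase Pyk2, had the largest falls of the signalling genes beside a strong rise. Ptk2b_r7 (chr14:66188896-66189156) fell from 2.24 and 1.70 to 0.127 and 0.181 (log2 −3.38 ± 0.30, adjusted p 4.07e-15). Ptk2b_r9, 1.49 kb away (chr14:66190232-66190727), fell from 1.83 and 1.72 to 0.152 and 0.196 (log2 −3.05 ± 0.30, adjusted p 1.92e-13). At 40.7 kb from the latter Ptk2b_r16 (chr14:66230948-66231332) rose from 0.532 and 0.307 to 1.31 and 1.81 (log2 2.23 ± 0.27, adjusted p 1.86e-10). Ptk2b_r23 (chr14:66260958-66261249) was WT-specific at 1.38 and 0.900. Inpp5d, the inositol phosphatase SHIP1 that dampens immune receptor signalling, had 39 regions with 5 lower and 2 higher. Inpp5d_r7 (chr1:87632216-87632445) fell from 1.06 and 1.02 to 0.292 and 0.317 (log2 −1.47 ± 0.30, adjusted p 6.61e-05), and it alone of the 7 was called without centring. The Inpp5d promoter was not called (2.64 and 2.29 in WT, 1.87 and 2.33 in IRF8KO).

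**Figure D4:**
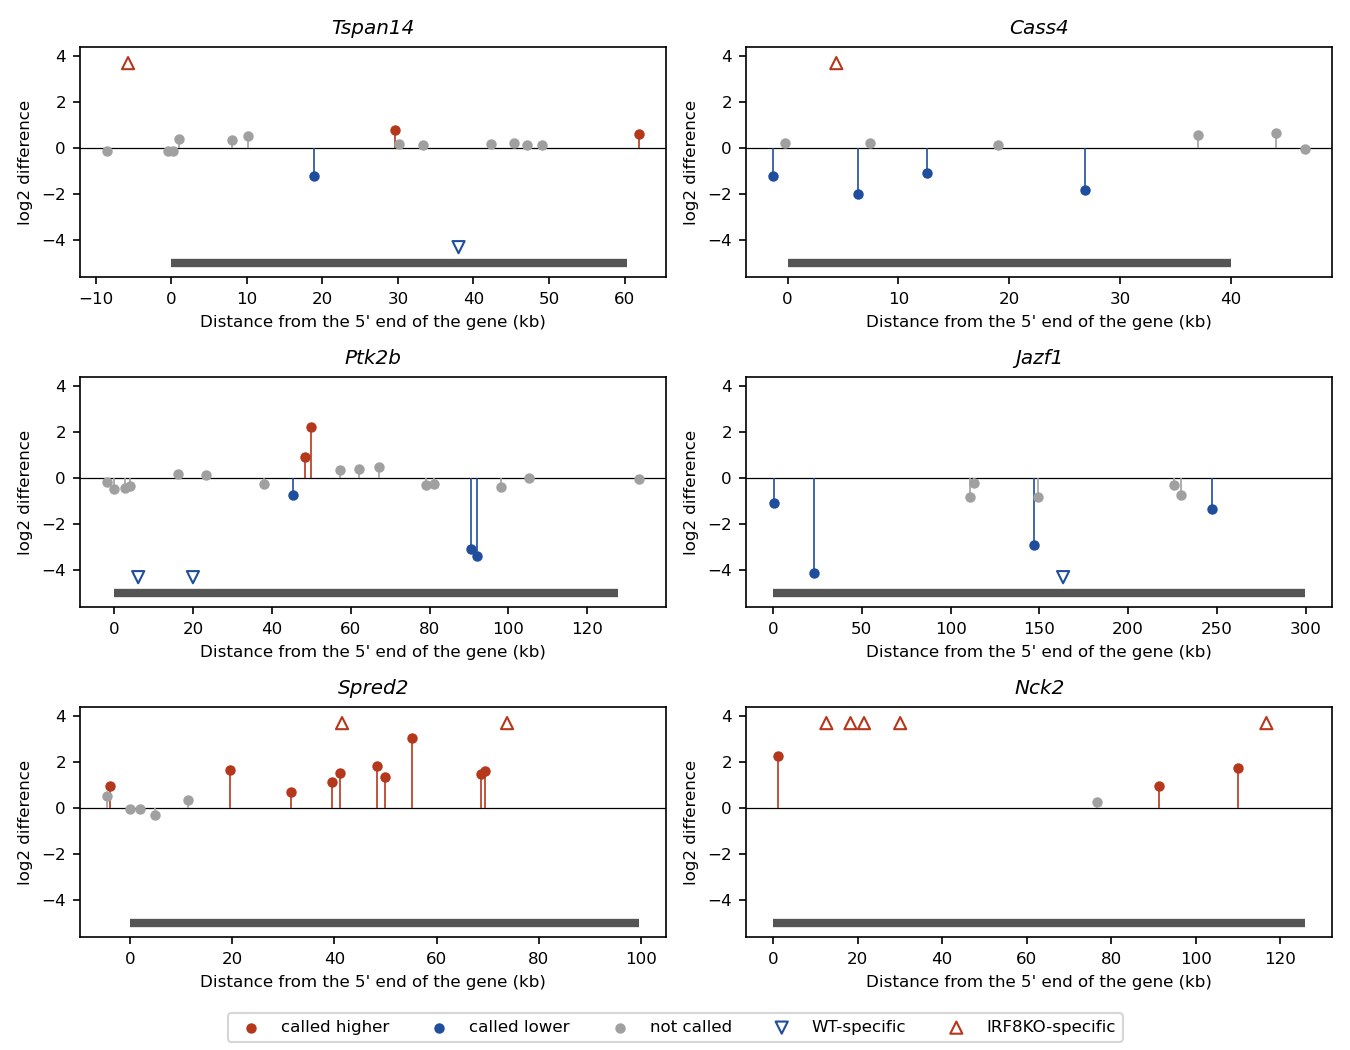
Log2 difference of each fitted region (vertical) against the distance of its summit from the 5′ end of the gene in kb (horizontal) at 6 loci, with red for called higher, blue for called lower and grey for not called. Open triangles mark IRF8KO-specific (top) and WT-specific (bottom) regions, which have no measured difference, and the dark bar is the gene body. Jazf1 has blue points and no red ones, Spred2 and Nck2 have red points and no blue ones, and Tspan14, Cass4 and Ptk2b hold changes of both kinds.

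Among adhesion and cytoskeletal genes 14 of 24 regions were fitted, and all 4 lowered regions (28.6%, against 12.5% of all fitted regions) lay at Cass4, a scaffold of focal adhesions. Cass4_r4 (chr2:172399922-172400341) fell from 4.03 and 3.01 to 0.584 and 0.861 (log2 −1.99 ± 0.21, adjusted p 2.55e-12). Cass4_r10 (chr2:172420455-172420940) fell from 1.55 and 1.17 to 0.292 and 0.332 (log2 −1.81 ± 0.29, adjusted p 4e-07). All 4 kept their call without centring. Cass4_r3, 1.91 kb from Cass4_r4, was IRF8KO-specific at 0.888 and 1.28, and the Cass4 promoter was not called (5.37 and 3.31 in WT, 3.24 and 4.83 in IRF8KO). At Epha1, an ephrin receptor, the region called higher was the promoter of the neighbour Zyx, and it lost its call without centring. Fermt2, which activates integrins, had a single region, a peak of 0.178 in IRF8KO replicate 1 alone.

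Jazf1 held the region with the largest fall at any risk locus. In its group of genes of the nucleus and RNA, 27 of 48 regions were fitted, with 5 higher (18.5%, against 13.3% of all fitted regions) and 4 lower (14.8%, against 12.5%). Calls made without centring were 1 higher and 3 lower. Of the 27 Jazf1 regions 9 were fitted, 4 were lower, none was higher and 1 was WT-specific. Jazf1_r25, in an intron 22.8 kb from the start site (chr6:53045411-53045847), fell from 3.66 and 2.88 to 0.165 and 0.136 (log2 −4.14 ± 0.29, adjusted p 8.26e-20). Jazf1_r14 (chr6:52921357-52921675), 124 kb further into the gene, fell from 2.26 and 2.02 to 0.190 and 0.287 (log2 −2.89 ± 0.27, adjusted p 5.56e-14). Jazf1_r10 (chr6:52905069-52905418) was WT-specific at 0.98 and 1.0. At Jazf1 the WT libraries had 22 and 20 strict peaks and the IRF8KO libraries 11 and 9. Other loci were apart too, such as Wwox (30 and 32 in WT, 17 and 22 in IRF8KO) and, the other way, Nck2 (6 and 6, then 14 and 16). How many genes were so separated was not counted. In the same group Zcwpw1, a histone reader of meiosis, had 3 regions called higher, all in Pilra introns next to it and none called without centring.

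Wwox, Slc24a4 and Echdc3 made up the last group, where 16 of 73 regions were fitted. Of these 1 was higher (6.25%, against 13.3% of all fitted regions) and 3 were lower (18.8%, against 12.5%). WT-specific were 5 (6.85%, against 5.58% of all regions) and IRF8KO-specific 4 (5.48%, against 3.86%). Wwox, an oxidoreductase encoded over a very long locus of 933 kb, had the highest promoter by the mean of all 4 libraries and the most WT-specific regions, 5. Wwox_r22 (chr8:114707914-114708359), at the start of the non-coding gene Gm16118 inside Wwox, read 1.49 and 1.35 in WT, and Wwox_r20 (chr8:114684216-114684755), 23.6 kb from it, read 1.62 and 1.27. Both were absent from IRF8KO. A further 2 Wwox regions were called lower and 1 was IRF8KO-specific. Wwox_r8, in a 3′ UTR of the gene, rose from 0.469 and 0.348 to 0.901 and 0.861 (log2 1.43 ± 0.30, adjusted p 8.94e-05, but 0.181 without centring and 0.0914 without WT replicate 1). Slc24a4, a cation exchanger, had 13 regions, with 1 IRF8KO-specific region (0.203 and 0.498). Echdc3 had 2 IRF8KO-specific regions beside its lowered promoter.

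The 200 bases around the summit of the region with the largest change and of the 2 regions of each genotype-specific class with the highest mean −log10 q are printed to show what was lost and gained, plus strand, from the RefSeq GRCm38 genome. Capitals mark a match to any of 6 motifs: ETS-IRF, the interferon-stimulated element GAAANNGAAA, the PU.1 site GAGGAAGT, the AP-1 site TGACTCA or TGAGTCA, the CEBP site TTGCNNAA and the RUNX site TGTGGTT. Over all regions these were in 4.30%, 3.12%, 7.72%, 5.90%, 9.5% and 5.55%. Of 83 matches in changed regions of the risk loci, 1 pair of different motifs overlapped. The windows of Jazf1_r25, Wwox_r20 and Nck2_r4 held no match, that of Wwox_r22 held an interferon-stimulated element and a RUNX site, and that of Spred2_r23 held a RUNX site.
Jazf1_r25, chr6:53045614-53045813, plus strand: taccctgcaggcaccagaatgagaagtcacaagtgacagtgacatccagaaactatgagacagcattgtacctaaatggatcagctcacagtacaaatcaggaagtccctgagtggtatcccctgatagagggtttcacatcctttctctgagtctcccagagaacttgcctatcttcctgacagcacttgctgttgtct
Wwox_r22, chr8:114707957-114708156, plus strand: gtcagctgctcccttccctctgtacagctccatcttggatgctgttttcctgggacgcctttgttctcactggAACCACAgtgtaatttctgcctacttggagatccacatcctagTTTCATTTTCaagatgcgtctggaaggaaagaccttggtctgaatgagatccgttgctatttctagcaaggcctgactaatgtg
Wwox_r20, chr8:114684341-114684540, plus strand: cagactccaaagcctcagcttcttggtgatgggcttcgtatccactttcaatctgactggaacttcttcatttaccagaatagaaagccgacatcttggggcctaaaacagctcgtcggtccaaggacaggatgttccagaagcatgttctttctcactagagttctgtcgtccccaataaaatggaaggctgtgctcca
Spred2_r23, chr11:19998049-19998248, plus strand: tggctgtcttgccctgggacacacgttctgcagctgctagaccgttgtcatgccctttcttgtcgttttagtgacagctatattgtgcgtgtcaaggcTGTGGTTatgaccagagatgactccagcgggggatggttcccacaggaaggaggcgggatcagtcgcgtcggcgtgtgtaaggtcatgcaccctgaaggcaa
Nck2_r4, chr1:43462787-43462986, plus strand: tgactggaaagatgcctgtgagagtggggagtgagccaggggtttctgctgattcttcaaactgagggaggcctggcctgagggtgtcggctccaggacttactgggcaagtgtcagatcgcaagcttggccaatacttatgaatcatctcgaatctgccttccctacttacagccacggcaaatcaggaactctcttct

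The AP-1 site was found in 8 of the 57 regions called higher (14%, where 14.2% of all regions called higher held it) and in 3 of the 30 IRF8KO-specific regions (10%, against 15.2%). It was in 1 of the 35 regions called lower (2.86%, against 5.29%) and in none of the 24 WT-specific regions (4.22% of all). Among the 12 regions that rose most, those of Usp6nl, Spred2, Psen2 and Sorl1 shown here carried it, with the site in capitals. They too were picked for their motif after the values were seen.
Usp6nl_r7, chr2:6378962-6379020, plus strand: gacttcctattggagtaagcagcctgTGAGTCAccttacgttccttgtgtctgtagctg
Spred2_r17, chr11:19979483-19979541, plus strand: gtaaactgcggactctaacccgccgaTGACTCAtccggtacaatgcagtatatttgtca
Psen2_r11, chr1:180263529-180263587, plus strand: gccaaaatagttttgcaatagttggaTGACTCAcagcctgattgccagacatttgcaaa
Sorl1_r12, chr9:42094833-42094891, plus strand: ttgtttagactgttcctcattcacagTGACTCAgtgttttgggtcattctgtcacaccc

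For the other motifs, the PU.1 site was in 12 of 57 regions called higher (21.1%, against 12.8% of all) and 3 of 35 called lower (8.57%, against 15.5%). It was also in 33 of 203 fitted regions with no call (16.3%, against 9.34%), in 1 of 30 IRF8KO-specific regions (3.33%, against 7.79%) and in 1 of 24 WT-specific regions (4.17%, against 9.33%). The CEBP site was in 8 of 57 called higher (14%, against 17%) and 5 of 35 called lower (14.3%, against 8.13%). The RUNX site was in 5 called higher (8.77%, against 10.5%) and 1 called lower (2.86%, against 5.51%). The interferon-stimulated element was in 4 of 24 WT-specific (16.7%, against 6.32%), 4 of 30 IRF8KO-specific (13.3%, against 2.93%), 2 of 57 higher (3.51%, against 3.05%) and 2 of 35 lower regions (5.71%, against 5.55%). These shares describe small sets and were not tested.

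A further 37 orthologues of reported risk genes outside the 35, Trem2, Apoe and Spi1 among them, were counted for comparison, and 36 were matched in the annotation. They held 382 regions, of which 173 were fitted, with 30 higher (17.3%, against 19.3% at the 35 loci) and 17 lower (9.83%, against 11.9%). Of the 382, 26 were WT-specific (6.81%, against 3.86%) and 20 were IRF8KO-specific (5.24%, against 4.83%). The medians of the log2 differences were 0.06 and 0.07. The difference between these lists was not tested.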

How the data were processed

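The 4 ATAC-seq libraries of sorted mouse microglia each have 1 deposited peak list. Per the submitters' processing notes, the tools were bcl2fastq, Bowtie2, MACS2 2.1.1.20160309 and deepTools, with the build mm10. Peak calling was done by the authors for every library on its own, per the file headers, at a p cutoff of 0.01, with cut sites shifted by -37 bp and extended to 73 bp and a local background of 10000 bp. The deposited pileup is a signal, the depth of cut sites at a summit, not scaled for depth. The deposited q-values are −log10 values. The headers state that q was not calculated, yet the column holds values, which were used to set strict peaks. The deposited fold enrichment, a ratio to the local background, served only as an alternative. Depth is the tag total in each header. Pileup per 1000000 tags assumes that pileup scales with that total.

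The 35 genes, the role groups, the other risk genes and the marker lists were chosen with earlier results of these data known. Strict peaks of the autosomes and X were merged where they overlapped by at least 1 bp. The value of a region is the highest pileup of any deposited peak that overlaps it, per 1000000 tags. A gene's promoter is within 1 kb of a start site. Log2 values, centred on each library's median, were fitted with limma 3.58.1 in R 4.3.3 (trended empirical Bayes, 2 residual and 68.3 prior degrees of freedom, two-sided), with Benjamini-Hochberg adjustment over the 58550 regions fitted, and the fit was checked on simulated data. Counts per library used exact permutation tests. Regions named by rule are the 12 called regions with the largest difference in each direction and the 10 of each genotype-specific class with the highest mean −log10 q. Others were named after their values were seen. Sequences and motifs came from the RefSeq GRCm38 genome, read with samtools 1.23.1, and no region lay beyond a chromosome's end. Replicate numbers did not pair the libraries (correlation of deviations 0.0044 over all fitted regions). A marker gene of the lists is not reported here.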

Additional observations from a re-analysis of the deposited data

How the results depend on the processing

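The counts of regions depended on the scaling. None of the 38 called regions recomputed one by one, which include those named here, changed direction, but most were picked for large differences. Of the 17 lower and 21 higher ones, 4 and 10 lost their call without centring, and 8 and 13 on the fold enrichment. Differences of uncalled promoters could turn without centring, as at Wwox (0.22 to -0.09). Without centring, 12 regions at the risk loci were higher and 20 lower (2.81% and 6.82% of all fitted regions were), with 1 and 0 main promoters. With quantile normalization 1 and 0 main promoters were called. On the fold enrichment, not centred, 9 regions were higher (3.05%, against 2.43% of all) and 12 lower (4.07%, against 3.51%), with 0 and 0 promoters. With a missing peak set to the 1st percentile of the library, 95 were higher (15.3%, against 9.49%) and 72 lower (11.6%, against 9.33%), with 1 and 1 promoters. Leaving out 1 library gave 19 to 57 higher and 11 to 42 lower regions, 1 to 2 promoters higher and 0 to 3 lower, 28 to 70 regions specific to WT, 42 to 69 specific to IRF8KO, and a difference in strict peaks of -50 to 6, the last without IRF8KO replicate 1. The low counts of 19 and 11 came without WT replicate 1, where the lone WT library is assumed to vary like IRF8KO. Without WT replicate 1, smaller shares of all fitted regions were called higher and lower too. Each library left out also raised both genotype-specific counts over all regions of the genome. Where absence meant no strict peak, 41 regions were WT-specific, and at a −log10 q of 5, 17 were IRF8KO-specific. With a replicate block, 59 were higher and 36 lower, against 57 and 35, and none of those 38 calls changed. The remaining alternatives stayed within 1.5 times of the main counts. The cause of these shifts was not tested. With 2 libraries per genotype, a peak present in 1 library alone or near the lowest deposited pileup could not be compared.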
